A study of Homo sapiens with 22 samples.

Results

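The collagen-high cells of day 9 (D9) are somatic cells of a reprogramming time course, chosen by 1 fibroblast matrix gene 1 day after the last transfection. A D9 cell was counted as collagen-high where COL1A1, the gene of the main chain of type I collagen, stood at 1000 CPM or more. CPM are counts scaled to the same total, 1000000, of unique molecular identifiers (UMIs, 1 per captured RNA molecule). The limit was met by 469 of the 3395 D9 cells kept (13.8%, exact 95% interval 12.7 to 15.0), out of 41975 cells kept in the whole series. They were set against the 2276 D9 cells (67.0%) below 200 CPM, called collagen-low, and the 650 cells (19.1%) in between are called middle cells. COL1A1 chose the classes, so every difference between collagen-high and collagen-low cells is given as a description. Where genes are counted as called between these classes, the call is a limit on size and spread that sorts the genes, not a test of the difference.

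BJ cells, an established line of human foreskin fibroblasts, were reprogrammed in microfluidic channels by 8 transfections of messenger RNA for POU5F1, SOX2, KLF4, MYC, LIN28 and NANOG on days 1 to 8, with a pluripotent stem cell medium used from day 9. D0 cells were collected before the first transfection and are no control of matched age. The cells of D3, D5, D7, D9, D11, D13 and D15 had all entered the transfection series. The paper grew BJ cells in a medium with fetal bovine serum and used a reprogramming medium from day 1. Each day was sampled as 2 pools, A and B, each made of the cells of 4 chips that were frozen as aliquots, and all cells come from 1 line. At D9 each pool was captured as 2 aliquots (libraries A1 and A2, B1 and B2), which share their cells' source, so the replicates here are the 2 pools and p-values measure only the spread between pools. Where a pool is left out below, its day keeps 1 pool and the spread comes from the other days alone. A call lost in such a repeat does not show that it rested on that pool.

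Fibroblasts build the extracellular matrix: they secrete fibrillar collagens, which are hydroxylated and folded in the endoplasmic reticulum and crosslinked outside the cell by lysyl oxidases, and they remodel the matrix with metalloproteinases and their inhibitors. Under transforming growth factor beta (TGF-beta), or mechanical load acting through the co-activators YAP and TAZ, they can take on a contractile program with smooth muscle actin. In reprogramming to pluripotency the mesenchymal program is normally shut down, epithelial genes such as EPCAM come on, and the endogenous pluripotency genes follow.

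The libraries differed in how many collagen-high cells they held. Library A1 held 2 of its 143 kept cells (1.40%, interval 0.170 to 4.96), and library A2 held 284 of 1599 (17.8%, 15.9 to 19.7). Library B1 held 39 of 889 (4.39%, 3.14 to 5.95), and library B2 held 144 of 764 (18.8%, 16.1 to 21.8). In both pools the first aliquot therefore held fewer than the second, with intervals that do not overlap, and the pool values below rest mainly on A2 and B2. These intervals cover counting error only. Per pool the share was 16.4% and 11.1%. As a mean of the 2 pools it was 13.7% ± 3.78 (SD, n = 2) at D9. Earlier days gave 22.9% ± 8.94 (D0), 13.5% ± 2.37 (D3), 40.3% ± 19.3 (D5) and 31.6% ± 22.3 (D7). Later days gave 27.2% ± 1.07 (D11), 17.4% ± 7.25 (D13) and 6.19% ± 1.57 (D15). The D11 pools were close in this share but not in their other cells. Middle cells made up 64.7% of pool A and 13.7% of pool B, and collagen-low cells 7.38% and 59.8%. The share at D0 shows what the limit selects: untransfected fibroblasts lay mostly (75.3%) between the limits.

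**Figure D1:**
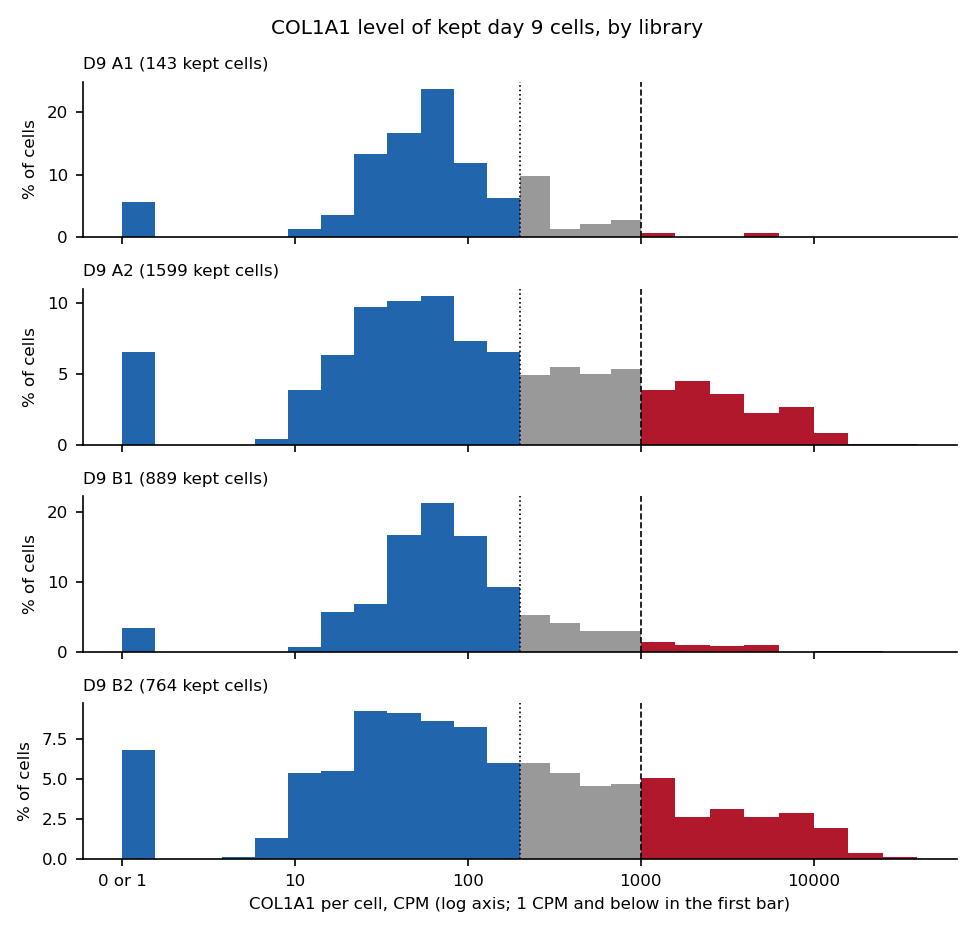
Percentage of the kept D9 cells of a library (vertical axis) by their COL1A1 level in CPM (horizontal axis, log scale) in the 4 libraries, with the limits of 200 CPM (dotted) and 1000 CPM (dashed) and collagen-low cells in blue, middle cells in grey and collagen-high cells in red. Libraries A2 and B2 have a tail of high cells (284 and 144 cells) that is nearly missing in A1 (2 cells) and thin in B1 (39 cells).

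COL1A1 (chr17:50184101-50201632, minus strand, GRCh38, protein coding) ranged from 1001.2 to 35361 CPM in the collagen-high cells, with a median of 2783 CPM. No gap in the data marks the limit: 19 collagen-high cells lay between 1000 and 1100 CPM and 37 middle cells between 900 and 1000 CPM, and at the lower limit 57 cells lay just below 200 CPM and 47 just above it. Collagen-high cells were shallower than the rest, with a median of 43724 UMIs and 5510 genes against 56104 UMIs in middle and 68587 UMIs in collagen-low cells. The cell with the fewest COL1A1 molecules among them held 17. Scrublet, a doublet caller, marked 3 of the 469 cells, and 4.05% of them were among the top 5% of doublet scores, against 8.15% of middle and 5.23% of collagen-low cells. Between 0 and 2 cell barcodes were shared by any 2 of the 4 libraries.

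The other markers of the class were all higher where COL1A1 was high. In what follows a level is the CPM of a gene in the summed UMIs of all cells of a class in 1 pool, and paired values give pool A and then pool B. LUM (chr12:91102629-91111494, minus strand), coding for lumican, a proteoglycan that spaces collagen fibrils, stood at 1199 and 1162 CPM in collagen-high and 11 and 18.6 CPM in collagen-low cells. TIMP3 (chr22:32801705-32863041, plus strand), an inhibitor of metalloproteinases that binds to the matrix, stood at 1629 and 1934 against 43.5 and 52.7 CPM. COL6A3 (chr2:237324003-237414328, minus strand), a chain of the microfibril collagen VI, stood at 436 and 515 against 16.6 and 17.7 CPM. In each pool the collagen-high value lay above both collagen-low values for all of these markers. With each cell thinned to 5000 UMIs, all 3 markers were seen together in 65.0% and 64.5% of collagen-high cells, in 10.4% and 10.2% of middle cells and in 0.545% and 0.426% of collagen-low cells, and none of them in 1.40% and 2.19% of collagen-high cells. In the single libraries A1, A2, B1 and B2, the level of LUM in collagen-high cells was 749, 1203, 1351 and 1132 CPM, and that of TIMP3 was 2942, 1618, 2481 and 1846 CPM, so these levels did not rest on 1 library.

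Across all genes, 12793 were compared between collagen-high and collagen-low cells, and 3642 (28.5%) were past the call limit upwards and 3330 (26.0%) downwards, where a call is an adjusted p below 0.01 in edgeR with a log2 difference beyond 0.25. Since COL1A1 set the classes, nothing is read from the counts of calls below beyond their size. With D9 pool A left out, 3949 genes were past the limit, and 4293 with D9 pool B left out. The median log2 difference over all genes was -0.0036.

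The other collagens were higher together. Of 22 other collagen genes tested, 21 were called higher in collagen-high cells, none lower, with a median log2 difference of 3.85, and COL10A1 was not called. COL6A2, the partner chain of COL6A3, stood at 1989 and 2066 CPM against 47.9 and 53.2 CPM in collagen-low cells. COL5A3, a chain of the fibril-nucleating collagen V, stood at 52.4 and 54.8 against 0.804 and 1.21 CPM, and COL15A1, a basement membrane zone collagen, at 23.7 and 25.6 against 0.458 and 0.569 CPM. Of the genes for collagen processing and crosslinking, 22 of 23 were called higher and none lower, with a median of 1.98. The lysyl oxidase LOXL4 stood at 199.9 and 139 against 2.51 and 1.80 CPM, and P4HA2, a subunit of the prolyl hydroxylase that stabilises the collagen triple helix, at 129.9 and 136 against 6.89 and 7.84 CPM. Secretory pathway genes followed on a smaller scale: 20 of 26 were called higher, none lower, with a median of 0.85. Among them CREB3L1, a transcription factor of the endoplasmic reticulum membrane that drives collagen secretion, stood at 116 and 118 against 10.7 and 11.1 CPM.

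The matrix glycoproteins and proteoglycans gave 34 of 35 genes called higher and 1 lower, with a median of 3.5. MGP, the matrix Gla protein that inhibits calcification, stood at 44.9 and 86.3 against 0.384 and 0.439 CPM and ELN, elastin, at 78.3 and 113 against 1.44 and 1.35 CPM. VCAN, the large proteoglycan versican, was the gene called lower, at 73.7 and 91.6 CPM in collagen-high and 106 and 126 CPM in collagen-low cells, but it was not called without pool A, without pool B, at a limit of 500 CPM, with the libraries apart or with no pool block. The proteases and inhibitors gave 21 of 22 genes called higher and 1 lower, with a median of 2.77. MMP1, the interstitial collagenase, stood at 1766 and 1305 against 19.6 and 22.0 CPM, and TIMP4 lay the other way at 4.46 and 5.10 against 21.6 and 24.4 CPM.

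Fibroblast surface and cytoskeleton genes followed, with 18 of 21 called higher, none lower, and a median of 3.33. The aminopeptidase ANPEP (CD13) stood at 181 and 164 against 4.50 and 3.90 CPM, and PDGFRB, a receptor for platelet-derived growth factor, at 123 and 118 against 3.74 and 5.02 CPM. THY1, a surface protein of fibroblasts that pluripotent stem cells also carry, was not called, at 649.5 and 623 against 592 and 575 CPM. Among mesenchymal transcription factors 21 of 23 were called higher, none lower, with a median of 2.74. SNAI2, a repressor of epithelial genes, stood at 104 and 114 against 3.06 and 3.55 CPM. PRRX1, a homeodomain factor of mesenchyme, stood at 69.7 and 85.4 against 3.49 and 5.95 CPM.

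Contractile genes and targets of YAP were higher in collagen-high cells for 15 of 18 genes and lower for none, with a median of 1.89. ACTA2, smooth muscle actin, stood at 772 and 888 against 55.2 and 64.5 CPM. CTGF (CCN2), a YAP target that codes for a matricellular growth factor, stood at 3163 and 3777 against 364 and 407 CPM. ANKRD1, another YAP target, was not called, with 21.3 and 54.1 against 63.7 and 91.5 CPM.

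Of 28 TGF-beta family and growth factor genes, 19 were called higher and 5 lower in collagen-high cells, with a median of 1.69. Over all genes these shares were 28.5% and 26.0%. HGF, the ligand of the receptor MET, stood at 33.1 and 26.3 CPM against 0.495 and 0.581 CPM in collagen-low cells, and INHBA, the activin A subunit, at 97.3 and 113 against 2.90 and 3.05 CPM. GREM1, a secreted BMP antagonist, stood at 85.1 and 71.0 against 2.52 and 3.39 CPM. SPP1 (osteopontin) and BMP4 lay on the collagen-low side, SPP1 at 148 and 323 against 1358 and 1437 CPM and BMP4 at 14.9 and 43.4 against 82.3 and 87.6 CPM, and SPP1 was not called without pool A. All 10 genes of insulin-like growth factors (IGFs) and their binding proteins were called higher, with a median of 2.34, among them IGFBP3, the main IGF carrier of serum, at 568 and 658 against 36.5 and 38.5 CPM.

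Chemokines and inflammatory genes gave 14 of 17 called higher and 1 lower, with a median of 3.92. The neutrophil attractants CXCL8 and CXCL1 stood at 277 and 108 and at 1062 and 602 CPM in collagen-high cells and at 1.73 and 1.85 and at 9.38 and 11.4 CPM in collagen-low cells. CXCL12, a chemokine that holds stem cells in their niche, was lower, at 12.6 and 17.5 against 36.8 and 35.1 CPM. CXCL8 differed between the libraries, at 9.02, 279, 46.1 and 118 CPM in the collagen-high cells of A1, A2, B1 and B2. Of the interferon-stimulated genes 12 of 23 were called higher and 5 lower, with a median of 1.20 (6 to 7 and 4 with 1 pool left out). IFI6 stood at 57.7 and 43.4 against 11.7 and 11.2 CPM, and IFITM1, which pluripotent cells also express, at 6.72 and 16.5 against 56.8 and 85.6 CPM (not called with no pool block).

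Pluripotency genes were low in collagen-high cells, but not at the level of fibroblasts. Of 29 tested, 28 were called lower than in collagen-low cells and none higher, with a median of -3.42 (9 to 13 called with 1 D9 pool left out). POU5F1 (OCT4) stood at 48.7 and 53.6 CPM against 569.5 and 592 CPM, NANOG at 3.91 and 7.44 against 90.02 and 83.1 CPM, and SOX2 at 2.74 and 3.93 against 39.1 and 27.6 CPM. With a D9 pool left out, which leaves 1 pool at D9, POU5F1 and SOX2 were called in neither case and NANOG was not called without pool A. The log2 difference was -3.44 for POU5F1 and -2.79 for SOX2 without pool A, and -3.40 and -3.685 without pool B. SOX2 was also not called at a COL1A1 limit of 500 CPM. The messenger RNAs transfected until day 8 and the cells' own transcripts of these genes are not told apart by name in the counts. Summed over the list, pluripotency genes took 747 and 888 CPM in collagen-high cells, 1577 and 1752 CPM in middle cells, 4969 and 5011 CPM in collagen-low cells, and 16.8 and 14.3 CPM in collagen-high cells of D0. The middle cells thus lay between the other classes.

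In single cells thinned to 5000 UMIs, POU5F1 gave a UMI in 12.9% ± 4.92 of collagen-high cells (SD, n = 2 pools). The share was 24.6% ± 8.43 in middle, 64.1% ± 6.18 in collagen-low and 0.0297% in all kept D0 cells. TDGF1, a co-receptor of Nodal that marks pluripotent cells, gave 11.2% ± 0.431, 23.1% ± 0.0338, 78.0% ± 0.169 and 0.00814% in the same order. The libraries of collagen-high cells differed within pool B, where library B1 stood apart, with POU5F1 in 15 of 39 cells (38.5%, exact interval 23.4 to 55.4) and TDGF1 in 11 (28.2%, 15.0 to 44.9). Library B2 of the same pool had 10.4% and 6.25%, and A2 had 9.15% and 10.9%, so pool B without B1 falls from 16.4% to 10.4% for POU5F1 and from 10.9% to 6.25% for TDGF1. Droplets take up free RNA from broken cells, and at D9 most cells were collagen-low and rich in these transcripts, so its part in these shares was not tested and the D0 share is no measure of it. The pluripotency molecules were not evenly spread: the 10% of collagen-high cells with the most of them held 43.2% and 34.0% of the total, and 18 of 286 (6.29%) and 9 of 183 (4.92%) collagen-high cells reached the lower quartile of the collagen-low cells of their pool.

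**Figure D2:**
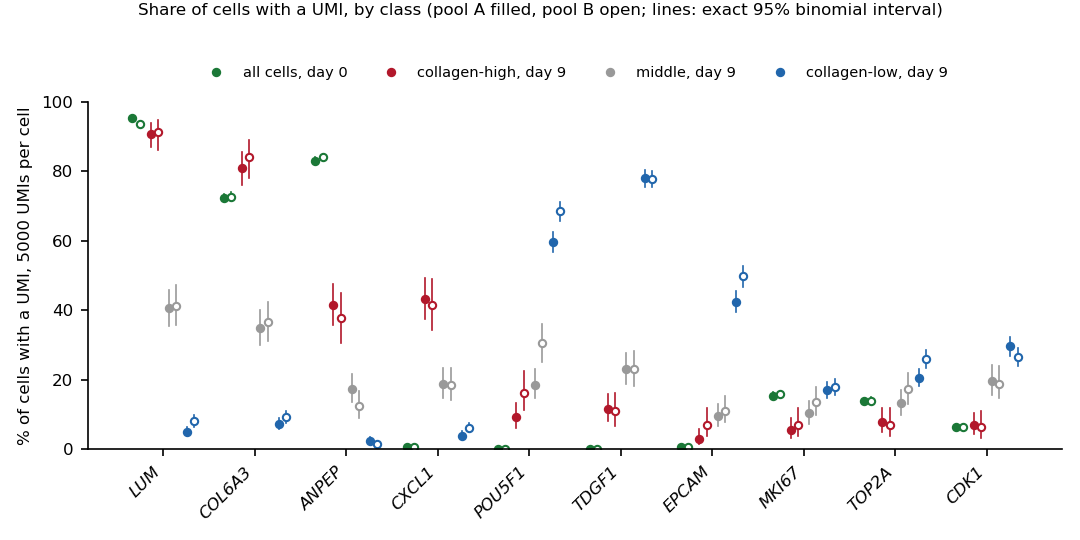
Percentage of cells with at least 1 UMI (vertical axis) for 10 genes (horizontal axis) after thinning every cell to 5000 UMIs, for all D0 cells and for D9 collagen-high, middle and collagen-low cells, with pool A filled, pool B open and lines for exact 95% intervals. LUM was seen in 91.1% of collagen-high and 6.54% of collagen-low cells and POU5F1 in 12.9% and 64.1%, with middle cells between them.

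Epithelial genes lay on the collagen-low side, with 21 of 25 called lower and 1 higher and a median of -2.42 (8 to 9 called lower with 1 pool left out). EPCAM, an adhesion protein of epithelial and pluripotent cells, stood at 13.3 and 15.3 CPM in collagen-high and 186 and 217 CPM in collagen-low cells, and gave a UMI in 5.13% ± 2.80 against 46.1% ± 5.15 of cells. Among collagen-high cells this share was 23.1% in library B1, 2.78% in B2 and 3.17% in A2, and without the top 5% of doublet scores it was 1.09% in pool A and 6.82% in pool B. The keratin gene KRT7 was the gene called higher, at 34.2 and 61.2 against 8.49 and 7.73 CPM. AES, a Groucho-family co-repressor gene whose counts run high during the transfection days, stood at 7463 and 8309 CPM in the sums of collagen-high and 11453 and 7616 CPM in those of collagen-low cells and was not called. Its median over single cells, examined after its values were seen, was 915 and 1434 CPM in collagen-high against 4986 and 3250 CPM in collagen-low cells, so the sum of collagen-high cells lay far above their median. Of the 6 transfected factor genes and AES, 7 genes in all, 4 were called lower and none higher, with a median of -2.86 (0 to 2 called with 1 pool left out), and of 6 mesendoderm genes 1 was called higher and 1 lower.

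**Figure D3:**
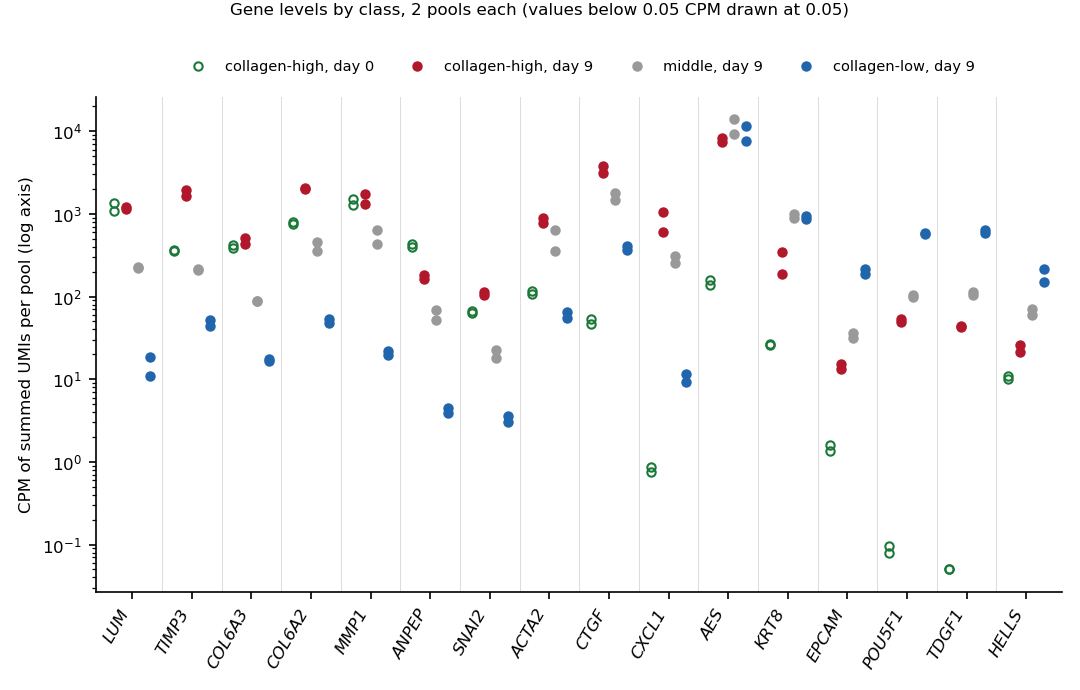
Level of 16 genes (horizontal axis) in CPM of the summed counts on a log axis for collagen-high cells of D0 (open green) and collagen-high (red), middle (grey) and collagen-low (blue) cells of D9, with 1 point per pool and values below 0.05 CPM drawn at 0.05. The matrix genes LUM, TIMP3, COL6A3 and COL6A2 step down from collagen-high to collagen-low cells, EPCAM, POU5F1 and TDGF1 step up, and the middle cells lie between in both.

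Collagen-high cells carried less of the division program. S phase genes gave 36 of 43 called lower and none higher, with a median of -1.42, and G2M genes 49 of 54 called lower and none higher, with a median of -1.37 (21 to 28 and 23 to 25 called with 1 pool left out). HELLS, a chromatin remodeller of replicating cells, stood at 21.7 and 25.9 against 149 and 217 CPM. The proliferation marker MKI67 gave a UMI in 6.35% ± 1.07 of collagen-high, 12.0% ± 2.22 of middle and 17.5% ± 0.564 of collagen-low cells. Over all kept D0 cells, at any COL1A1 level, the share was 15.7% ± 0.240. Summed S phase genes took 812 and 916 CPM in collagen-high and 2266 and 2528 CPM in collagen-low cells of D9. At D0 the same limits gave 412 and 454 against 1209 and 1424 CPM, so such a gap was not particular to D9. For G2M genes the sums were 2198 and 2078.5 against 5157 and 5403.5 CPM at D9. At D0 they were 1553.6 and 1820 against 4051 and 3473 CPM. Collagen-high cells held higher sums at D9 than at D0. Their G2M genes had a median log2 fold change of only 0.09 between these days. By phase scores on cells thinned to 5000 UMIs, 21.4% ± 0.893 of collagen-high, 54.8% ± 2.2 of middle and 91.1% ± 0.970 of collagen-low cells were scored S or G2M. Among all kept D0 cells 20.2% ± 0.592 were. Scores assign a phase to every cell and can read free RNA, so they give an order and not a share of dividing cells.

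Inhibitors of the cell cycle and p53 targets were called higher for 10 of 19 genes and lower for 3, with a median of 0.75. CDKN1A (p21) stood at 194 and 143 CPM against 31.4 and 24.7 CPM in collagen-low cells, and CDKN2B (p15), a TGF-beta target, at 33.9 and 50.5 against 2.92 and 3.21 CPM. Of the glycolysis genes 2 of 18 were called higher and 8 lower, with a median of -0.32 (5 lower with 1 pool left out), and of the HOX genes 8 of 14 higher and 3 lower, with a median of 1.17 (1 to 2 lower with 1 pool left out). Outside the lists, APOD, an apolipoprotein, stood at 389.9 and 323 against 3.63 and 4.63 CPM and the metallothionein MT1H at 58.2 and 35.7 against 775 and 791 CPM (not called without pool B).

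Several defining markers of other cell types were absent or low. KRT5 and KRT14 of keratinocytes, SOX10, MLANA and DCT of neural crest and melanocytes, HLA-DRA, LYZ, CD3E and HBB of blood, and GCM1 of trophoblast were at 0 in both pools of collagen-high cells. PECAM1 of endothelium stood at 0.704 and 1.17 CPM and PTPRC of leukocytes at 0.782 and 1.27 CPM. The summed lists came to 33.2 and 38.9 CPM for endothelium, 4.8 and 5.3 CPM for blood, 6.6 and 8.1 CPM for melanocytes and neural crest and 50.7 and 44.5 CPM for trophoblast. In collagen-low cells the same lists summed to 30.4 and 30.0, 9.86 and 8.78, 16.4 and 17.6, and 129 and 111 CPM. In collagen-high cells of D0 they summed to 17.9 and 17.1, 3.49 and 3.28, 14.7 and 15.9, and 76.4 and 79.7 CPM. PECAM1 made up little of the endothelial sum at D9, which was no lower than in collagen-low cells and was higher than at D0. The keratinocyte list summed to 367 and 369 CPM, against 169 and 174 CPM in collagen-low cells, with KRT10 alone at 364 and 358 CPM, and 1 of its 2 tested genes was called higher. Of the 3 melanocyte and neural crest genes tested 1 was called higher and 2 lower. None of the endothelial, blood and trophoblast genes tested was called higher, and 1 of 2, 1 of 1 and 2 of 3 were called lower.

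The question the design allows to be tested is how collagen-high cells of D9 differ from collagen-high cells of other days, which all carry COL1A1 past the same limit. These tests share the D9 pools, so they are not independent of each other. The first sets them beside collagen-high cells of D0 (2370 cells), the untransfected fibroblasts. Medium, days in culture and transfection all differ between D0 and D9 and cannot be told apart here. COL1A1 itself was left out of the calls and was higher at D9, at 3556 and 4114 CPM against 1324 and 1344 CPM. The same limit therefore did not give the same COL1A1 level. How far this difference goes with the changes of other collagen and processing genes was not tested. Of 12793 genes, 1694 (13.2%) rose and 1386 (10.8%) fell, with a median log2 fold change of -0.00092 over all genes. Leaving out a pool gave 1334 calls without D9 A, 1295 without D9 B, 1293 without D0 A and 1256 without D0 B. The markers LUM and COL6A3 did not pass the test: their log2 fold changes were -0.09 ± 0.37 (adjusted p = 0.87) and 0.20 ± 0.23 (adjusted p = 0.53). TIMP3 rose by 2.26 ± 0.22 (SE, adjusted p = 1.0e-05), from 354 and 365 CPM to the values above.

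Both chains of the basement membrane collagen IV rose among the collagens. Of 22 collagen genes 7 rose and none fell (3 to 5 without 1 pool), with a median of 0.76. COL4A1, the main chain of the network collagen IV, stood at 14.9 and 14.4 CPM at D0 and 222 and 258 CPM at D9, a log2 fold change of 3.99 ± 0.30 (adjusted p = 1.8e-06). Its partner COL4A2 stood at 33.2 and 34.1 and then 201 and 245 CPM, a change of 2.68 ± 0.32 (adjusted p = 4.3e-05). COL5A3 also rose, by 3.51 ± 0.34 (adjusted p = 1.1e-05), whereas the second type I chain COL1A2 had a change of 0.31 and was not called. Of the processing genes 7 of 23 rose and none fell (3 to 5 without 1 pool, median 1.03), among them the lysyl oxidase LOXL2, by 2.11 ± 0.27 (adjusted p = 8.2e-05), and the collagen chaperone SERPINH1 (HSP47), by 1.80 ± 0.30 (adjusted p = 4.7e-04).

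COL4A1 and COL4A2 lie head to head on chromosome 13 and are transcribed away from each other, which is why their promoters are shown together. RefSeq starts on GRCh38.p14 lie 127 bases apart, so the windows of 250 bases before each start, chr13:110307158-110307407 on the minus strand for COL4A1 and chr13:110307034-110307283 on the plus strand for COL4A2, share 126 bases. Both hold 1 and the same CCAAT motif, searched on both strands, 26 bases before the COL4A1 start and 105 bases before the COL4A2 start (in capitals, as ATTGG on the strand of COL4A1).
COL4A1: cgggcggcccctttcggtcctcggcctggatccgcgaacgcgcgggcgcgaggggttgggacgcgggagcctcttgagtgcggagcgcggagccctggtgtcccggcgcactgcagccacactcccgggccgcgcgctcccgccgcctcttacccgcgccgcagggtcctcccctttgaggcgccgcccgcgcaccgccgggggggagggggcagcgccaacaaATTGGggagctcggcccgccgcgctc
COL4A2: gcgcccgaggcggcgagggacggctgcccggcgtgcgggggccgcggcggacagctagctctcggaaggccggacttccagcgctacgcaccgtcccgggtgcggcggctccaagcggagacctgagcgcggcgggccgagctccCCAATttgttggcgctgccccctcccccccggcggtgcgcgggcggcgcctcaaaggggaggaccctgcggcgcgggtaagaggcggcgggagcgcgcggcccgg
A CCAAT motif is found in 32.0% of the 35116 RefSeq windows of this length, so its presence is common, and whether it bears on the change was not tested.

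Among the matrix glycoproteins and proteoglycans ELN and TGFBI rose and PRELP fell. Of 35 tested 9 rose and 1 fell (6 and 1 without 1 pool), with a median of 0.40. ELN stood at 5.96 and 5.87 CPM at D0 and rose by 3.96 ± 0.28 (adjusted p = 1.0e-06), and TGFBI, a TGF-beta-induced adhesion protein, rose from 49.3 and 47.3 to 260.3 and 306 CPM (log2 2.50 ± 0.40, adjusted p = 3.5e-04). PRELP, a leucine-rich proteoglycan like lumican, fell by 2.16 ± 0.31 (adjusted p = 1.6e-04). Of 22 proteases and inhibitors 6 rose and 2 fell, with a median of 0.49 (4 rose without 1 pool). MMP1 did not pass, at 1514 and 1284 CPM at D0 and 1766 and 1305 CPM at D9 (adjusted p = 0.92).

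The TIMP3 promoter window, chr22:32801455-32801704 on the plus strand, is shown because TIMP3 both marks the cells and rose; it holds 1 CCAAT motif, read as ATTGG (capitals), 88 bases before the start.
TIMP3: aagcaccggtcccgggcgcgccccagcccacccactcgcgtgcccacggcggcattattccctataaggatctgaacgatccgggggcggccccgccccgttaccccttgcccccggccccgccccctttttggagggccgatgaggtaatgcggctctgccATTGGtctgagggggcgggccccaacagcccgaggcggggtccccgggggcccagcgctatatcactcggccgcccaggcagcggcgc

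Contractile genes and YAP targets were higher at D9. Of 18 tested, 10 rose and 1 fell (9 to 10 rose without 1 pool), with a median of 1.59, and their summed level was 16917 and 19246 CPM at D9 against 5650 and 5313 CPM at D0. CTGF stood at 47.2 and 53.1 CPM at D0 and 3163 and 3777 CPM at D9, a log2 fold change of 6.07 ± 0.50 (adjusted p = 3.0e-06). ACTG2, the enteric smooth muscle actin, stood at 10.9 and 7.02 and then 513 and 645 CPM, a change of 5.97 ± 0.59 (adjusted p = 1.2e-05). ANKRD1 had 782 UMIs at D9 and 3 at D0, and its call was lost at a COL1A1 limit of 2000 CPM (adjusted p = 0.0194). LMOD1, leiomodin of smooth muscle, fell by 2.08 ± 0.28 (adjusted p = 1.1e-04), a call lost with each cell thinned to 5000 UMIs (-1.77, adjusted p = 0.014).

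The promoter windows of CTGF and ACTG2, which come after ANKRD1 in the size of the change in this list, are shown with the motifs that their known regulators read. The CTGF window (RefSeq CCN2, chr6:131951373-131951622, minus strand) holds 3 GGAATG motifs, the core read by TEAD factors, the DNA-binding partners of YAP, at 169, 104 and 95 bases before the start (capitals). The ACTG2 window (chr2:73892758-73893007, plus strand) holds 2 CArG boxes, the element of serum response factor, at 110 and 73 bases before the start (capitals).
CCN2: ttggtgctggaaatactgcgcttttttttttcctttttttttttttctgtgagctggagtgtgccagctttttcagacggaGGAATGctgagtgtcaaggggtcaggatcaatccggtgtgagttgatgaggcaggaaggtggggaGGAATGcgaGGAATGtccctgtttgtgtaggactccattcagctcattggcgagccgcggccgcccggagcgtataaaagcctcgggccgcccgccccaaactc
ACTG2: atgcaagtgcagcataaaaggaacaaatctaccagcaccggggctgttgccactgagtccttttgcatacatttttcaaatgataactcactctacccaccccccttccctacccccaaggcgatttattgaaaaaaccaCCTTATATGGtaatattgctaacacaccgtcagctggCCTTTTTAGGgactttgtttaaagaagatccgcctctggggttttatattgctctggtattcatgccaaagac
On either strand, GGAATG is found in 11.9% and a CArG box in 1.16% of all windows. A match is a run of letters, and binding was not measured.

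Among fibroblast surface genes and transcription factors more genes fell than rose. Of 21 surface and cytoskeleton genes 3 rose and 6 fell (median -0.80, 4 to 5 fell without 1 pool), and of 23 mesenchymal transcription factors 4 rose and 10 fell (median -0.82, 5 to 6 fell without 1 pool). OSR2, a zinc finger factor of limb and skin mesenchyme, fell from 424 and 409.6 to 23.3 and 15.2 CPM (log2 -4.47 ± 0.34, adjusted p = 1.6e-06). PDGFRA, the other receptor for platelet-derived growth factor, fell from 143 and 155 to 31.4 and 31.8 CPM (log2 -2.28 ± 0.32, adjusted p = 1.3e-04). ITGA11, the collagen-binding integrin chain, rose by 2.73 ± 0.30 (adjusted p = 2.6e-05), and MEOX1, a homeodomain factor, had 865 UMIs at D9 and 2 at D0. The nuclear factors NFIX and NR2F2 fell by 2.71 ± 0.29 (adjusted p = 1.9e-05) and 2.38 ± 0.26 (adjusted p = 2.0e-05). ANPEP stood at 400.1 and 439 CPM at D0 and 181 and 164 CPM at D9 and was not called (adjusted p = 0.1).

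**Figure D4:**
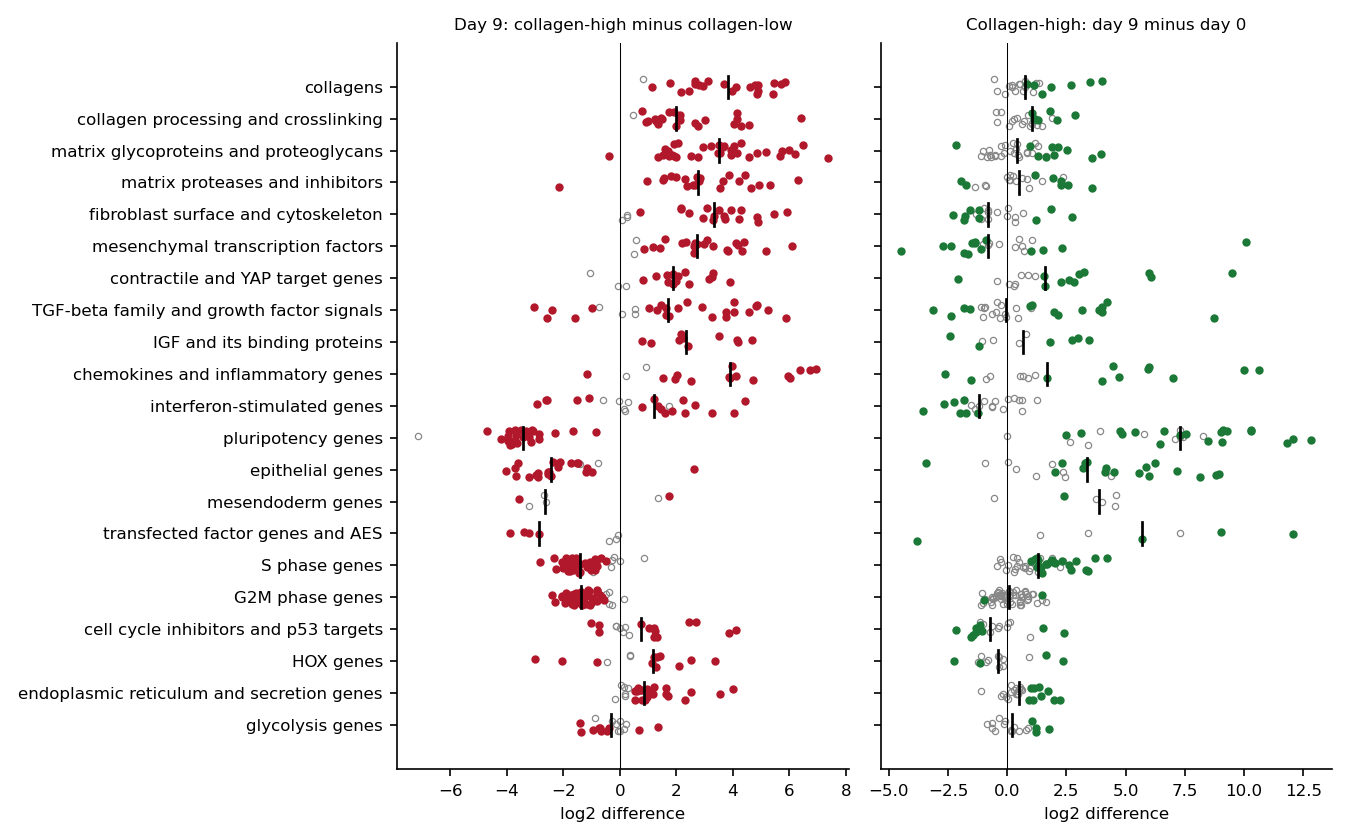
Log2 differences of the genes of 21 lists (rows), for collagen-high minus collagen-low cells of D9 on the left and D9 minus D0 collagen-high cells on the right, with 1 dot per gene, filled where called, and a black bar at the list's median. Collagens sit at a median of 3.85 on the left and 0.76 on the right, and pluripotency genes at -3.42 on the left and 7.29 on the right.

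Of 28 growth factor genes 10 rose and 4 fell, with a median of -0.06 (-0.12 to 0.10 without 1 pool). Over all genes 13.2% rose and 10.8% fell, so the falls alone do not set this list apart. INHBA rose from 6.86 and 6.94 to 97.3 and 113 CPM (log2 3.88 ± 0.38, adjusted p = 1.1e-05) and IL11, a cytokine of the interleukin 6 family, by 4.00 ± 0.62 (adjusted p = 2.9e-04), while the TGF-beta co-receptor TGFBR3 fell by 3.12 ± 0.33 (adjusted p = 1.9e-05) and FGF7, a fibroblast signal to epithelia, by 2.39 ± 0.31 (adjusted p = 7.9e-05). Of 10 IGF genes 4 rose and 2 fell, with a median of 0.65 (0.50 to 0.74 without 1 pool). IGFBP3 and IGFBP2 were among those that rose (IGFBP2 log2 2.72 ± 0.33, adjusted p = 4.8e-05, IGFBP3 log2 3.45 ± 0.37, adjusted p = 1.9e-05) and IGFBP6 among those that fell (log2 -2.40 ± 0.27, adjusted p = 2.7e-05).

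CXCL1 and CXCL6 rose from below 1 CPM. Of 17 chemokine and inflammatory genes 9 rose and 2 fell, with a median of 1.68 (7 to 9 rose without 1 pool). CXCL1 stood at 0.863 and 0.761 CPM at D0 and at 1062 and 602 CPM at D9, a log2 fold change of 9.97 ± 1.01 (adjusted p = 1.3e-05), and CXCL6 rose from 0.510 and 0.595 to 104 and 42.5 CPM (adjusted p = 3.3e-06). For CXCL8 there were 8 UMIs in all collagen-high cells of D0 and 4565 in those of D9, and its call was lost without D0 A (adjusted p = 0.012) and without D0 B (adjusted p = 0.0103). CXCL12 fell by 2.62 ± 0.27 (adjusted p = 1.7e-05). Of the interferon-stimulated genes none of 23 rose and 7 fell (2 to 5 without 1 pool, median -1.19).

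Relative to D0, pluripotency and epithelial genes stood higher in collagen-high cells of D9, with 19 of 29 (median 7.29) and 16 of 25 (median 3.37) risen and 0 and 1 fallen. Without 1 pool 11 to 16 and 8 to 10 rose. CLDN6, a tight junction claudin of embryonic epithelium, rose by 8.82 ± 1.04 (adjusted p = 3.8e-05). The pluripotency median becomes 5.40 with the 12 genes that had no UMI at D0 put at their bound. TDGF1 had 971 UMIs at D9 and none at D0, at least 985-fold higher against a floor of 3 UMIs over the group, and POU5F1 had 1128 against 6 UMIs. The levels of these genes in collagen-low cells of D9, given above, were far higher still, and the part of free RNA was not tested. Keratins of simple epithelia went both ways. KRT18 rose from 48.2 and 45.3 to 762 and 908 CPM (adjusted p = 1.0e-05) and KRT8 from 26.2 and 27.0 to 188 and 347 CPM (adjusted p = 4.5e-05), while KRT19 fell from 443 and 419.9 to 49.8 and 33.1 CPM (adjusted p = 2.0e-04). AES rose from 138 and 159.9 CPM (log2 5.68 ± 0.34, adjusted p = 3.5e-07), and of its list of 7, with the transfected factor genes, 3 rose and 1 fell. The gene that fell was KLF4, itself a transfected factor gene, and the lowest log2 fold change of the list was -3.81. The call of KLF4 was lost without D9 A, where its log2 fold change was -3.64. Of 6 mesendoderm genes 1 rose and none fell.

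Of the S phase genes 21 of 43 rose and none fell, with a median of 1.3, but 6 to 10 rose without 1 pool, 3 with each cell thinned to 5000 UMIs and 7 against all kept D0 cells. FEN1, an endonuclease of replication, rose by 3.34 ± 0.33 (adjusted p = 1.2e-05). G2M genes gave 1 of 54 risen and 1 fallen, with a median of 0.09. Cell cycle inhibitors and p53 targets gave 2 of 19 risen and 7 fallen (1 fallen without 1 pool), and CDKN2B rose by 2.41 ± 0.30 (adjusted p = 5.8e-05). CDKN1A had a change of -1.13 that did not pass (adjusted p = 0.012). Secretory pathway genes gave 9 of 26 risen and none fallen, with a median of 0.48 (1 to 3 without 1 pool). Of 18 glycolysis genes 4 rose and none fell, and of 14 HOX genes 2 rose and 2 fell, and none of these calls was made in any repeat that left out a pool. The named falls outside the lists were AHNAK2 (-4.71 ± 0.38), a giant scaffold protein, SLC38A11 (-4.005 ± 0.35), of an amino acid transporter family, and SCN9A (-3.98 ± 0.44), a sodium channel.

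Collagen-high cells of D7 (1460 cells) gave few calls against those of D9. Of 12793 genes 30 rose from D7 to D9 (0.235%) and none fell by edgeR, where 815 were higher and 642 lower at an unadjusted p below 0.05 and DESeq2 called 133 higher and 32 lower. The count fell to 14 without D9 A, 9 without D9 B, 14 without D7 A and 1 without D7 B. None of 22 collagens (median 0.45), 22 proteases and inhibitors or 18 contractile genes (median 0.73) was called, against a median of -0.013 over all genes. The markers were not called by edgeR either: the log2 fold change was -0.34 ± 0.37 for LUM (adjusted p = 0.77), 0.16 ± 0.23 for COL6A3 (adjusted p = 0.85) and 0.94 ± 0.21 for TIMP3 (adjusted p = 0.061). TIMP3 was called by DESeq2 (0.93, adjusted p = 0.0056) and by edgeR with no filter on genes (0.92, adjusted p = 0.0025). The pools of D7 differed from each other in several of these genes: CTGF stood at 1849.7 and 724 CPM and ACTA2 at 704 and 318 CPM.

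The named genes that rose from D7 to D9 came from several lists. ELN rose from 18.3 and 14.6 to 78.3 and 113 CPM (log2 2.57 ± 0.26, adjusted p = 5.8e-04) and GREM1 from 15.5 and 12.3 to 85.1 and 71.0 CPM (log2 2.53 ± 0.24, adjusted p = 5.8e-04). Both calls held in each repeat that left out a pool except without D7 B (adjusted p = 0.0295 for both). LTBP2, a latent TGF-beta binding protein of elastic fibres, rose from 5.31 and 6.03 to 25.2 and 26.9 CPM (log2 2.22 ± 0.25, adjusted p = 8.0e-04), a call lost without D7 A (adjusted p = 0.0137) and without D7 B (adjusted p = 0.0295). CDKN2B rose by 2.46 ± 0.30 (adjusted p = 0.0015) and ACTC1, cardiac actin, by 4.24 ± 0.56 (adjusted p = 0.0027), the latter lost at a COL1A1 limit of 2000 CPM (adjusted p = 0.0172) and both lost without D9 B (adjusted p = 0.025 for both), D7 A and D7 B. FSTL3, an activin antagonist, rose by 2.38 ± 0.34 (adjusted p = 0.0045), a call lost in all 4 repeats (adjusted p from 0.018 to 0.134). LEFTY2, a Nodal antagonist of pluripotent cells, rose from 0.388 and 0.0613 to 23.4 and 42.7 CPM (log2 7.71 ± 0.88, adjusted p = 0.001), next to 299 and 272 CPM in collagen-low cells of D9, and the part of free RNA was not tested. Its call was lost without D7 B (adjusted p = 0.064). ACTC1 was highest in middle cells of D9 (387 and 726 CPM), against 121 and 197 CPM in collagen-high and 83.2 and 145 CPM in collagen-low cells.

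From D9 to D11 (1684 collagen-high cells), after the transfections had ended, 15 genes rose (0.117%) and 13 fell (0.102%), with a median of 0.018 over all genes. The 2 pools of D11 differed widely in their middle and collagen-low shares, given above. Leaving out a pool left 1 to 4 calls: 1 without D9 A, 1 without D9 B, 4 without D11 A and 3 without D11 B. AES fell from 7463 and 8309 to 424 and 497 CPM (log2 -4.16 ± 0.31, adjusted p = 3.8e-05), the call that held in all 4 repeats. LTBP2 rose again, to 86.5 and 142 CPM (log2 2.06 ± 0.24, adjusted p = 0.0031), a call kept only without D11 A and lost without D11 B (adjusted p = 0.0163), D9 A and D9 B. None of 22 collagens was called (median 0.46). ELN rose to 306 and 304 CPM (log2 1.61 ± 0.25, adjusted p = 0.0089) and FN1, fibronectin, from 904 and 1104 to 2238 and 2718 CPM (log2 1.24 ± 0.18, adjusted p = 0.0072), both lost in all 4 repeats (adjusted p from 0.0334 to 0.175). Of the chemokines 3 fell: CXCL6 to 6.61 and 11.2, CCL2 from 247 and 225 to 32.4 and 43.9 and CCL7 from 65.1 and 43.9 to 10.6 and 14.3 CPM, with the list's median at -1.38, and these calls too were lost in each repeat (adjusted p from 0.013 to 0.153). Each of these 5 calls was also lost under alternatives that kept all pools. A COL1A1 limit of 2000 CPM ended those of ELN, FN1, CCL2 and CCL7 and a limit of 500 CPM those of CXCL6 and CCL7. Thinning each cell to 5000 UMIs ended those of FN1 and CCL7, a fit of only the days compared those of FN1 and CXCL6, and leaving out the top 10% of cells by UMI that of ELN (adjusted p from 0.0127 to 0.053 over these alternatives).

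**Figure D5:**
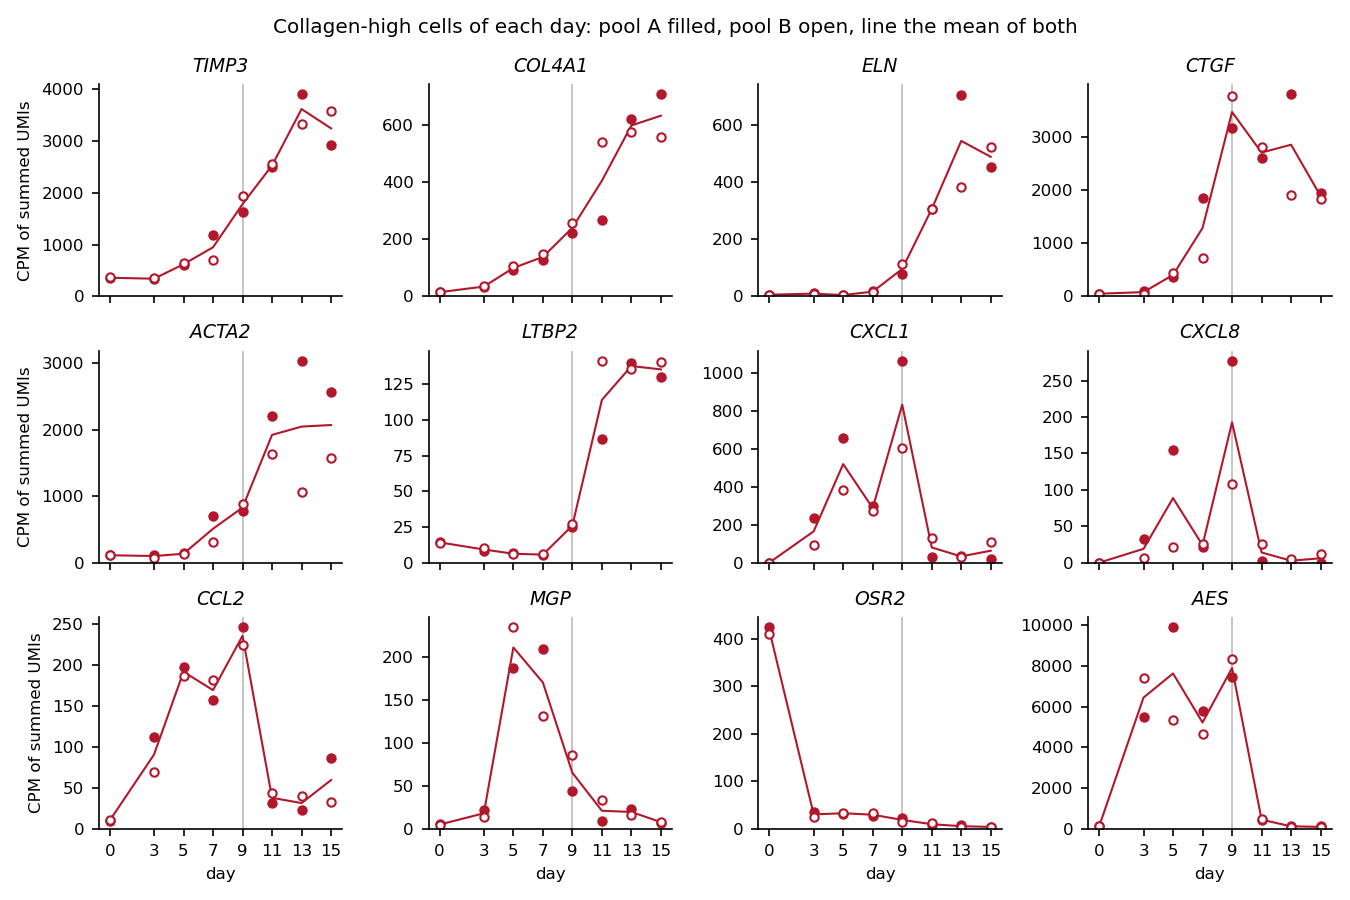
Level of 12 genes (panels) in CPM of the summed collagen-high cells on each of the 8 days (horizontal axis), with pool A filled, pool B open and a line through the mean. AES drops between D9 (7463 and 8309 CPM) and D11 (424 and 497 CPM), ELN climbs from 5.96 and 5.87 CPM at D0 to 306 and 304 CPM at D11, and OSR2 is down by D3 (36.9 and 24.6 CPM).

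Over the whole course the D9 values of collagen-high cells sat on different slopes. TIMP3 stood at 336 and 345 CPM at D3, 603 and 637 at D5, 1192 and 703 at D7 and 2507 and 2549.6 at D11. CXCL8 did not follow a steady course, at 155 and 22.2 CPM at D5, 22.0 and 26.3 at D7, 277 and 108 at D9 and 1.98 and 26.2 at D11, with pools that differed several-fold at D5 and D11. MGP stood at 188 and 235 CPM at D5 and 209.9 and 132 CPM at D7 and was lower at D9, at 44.9 and 86.3 CPM.

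Collagen-high cells of D9 were not alike. The upper and lower quartiles of TIMP3 over single cells were 2358 and 168 CPM in pool A and 2874 and 160 CPM in pool B. The median cell had 33.9 and 25.3 CPM of MMP1, whereas the upper quartile was 1370.3 and 859 CPM, so the high mean of this gene came from a part of the cells. CXCL1 had the same shape, with medians of 52.4 and 40.3 CPM and upper quartiles of 719 and 454 CPM. LUM was even by comparison, with medians of 1064 and 1089 CPM. After thinning to 5000 UMIs, MMP1 was seen in 39.5% ± 0.998 of collagen-high cells and 91.6% of all kept D0 cells, at any COL1A1 level. In the same order ANPEP was seen in 39.7% ± 2.76 and 83.6%, and ELN in 20.7% ± 3.12 and 1.91%.

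Cells with MMP1 more often held ANPEP and CXCL1 and less often ACTA2. This is a description, for genes chosen after their values were seen, in which the cells of 1 library share their source and were thinned to the same depth. In library A2 ANPEP was seen in 72.8% of the 114 collagen-high cells with an MMP1 UMI and 20.6% of those without, and in library B2 in 73.6% of 53 and 24.2%. CXCL1 went the same way, with 65.8% against 28.2% in A2 and 62.3% against 28.6% in B2. ACTA2 went the other way, with 46.5% against 72.4% in A2 and 45.3% against 69.2% in B2. Spearman's rho between MMP1 and CTGF was -0.40 in A2 (284 cells), -0.52 in B1 (39 cells) and -0.50 in B2 (144 cells), and that between ACTA2 and CTGF was 0.46, 0.52 and 0.51. The sign of each was the same in the 3 libraries.

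Summed lists were compared across the same cells. Spearman's rho between collagens and matrix glycoproteins was 0.52, 0.60 and 0.68 in A2, B1 and B2, and between contractile genes and glycoproteins 0.64, 0.42 and 0.61. The glycoprotein list thus varied with the collagens and with the contractile genes. Between collagens and contractile genes rho was 0.01, -0.28 and 0.18, with no common sign. Contractile genes and chemokines had negative values, -0.24, -0.39 and -0.25, and contractile and epithelial genes positive ones, 0.45, 0.47 and 0.40. Between the pools of collagen-high cells, 7 of 10 chemokine genes with enough counts were higher in A, with a median log2 difference (A minus B) of 0.49, and 0 of 10 pluripotency genes (median -0.30) and 1 of 6 epithelial genes (median -0.61) were. Over all genes with enough counts 1792 of 4852 were higher in A, with a median of -0.054.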

How the data were processed

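Counts were taken as the authors deposited them: UMI counts of 33694 genes per cell barcode from 22 droplet libraries (10x Genomics, 3' ends), made with Cell Ranger 2.2 on GRCh38, unnormalized and before the authors' filters. Aliquots were added to 16 pools, 2 per day. The cell filter asked for 1000 genes or more and no more than 10% of UMIs on mitochondrial genes. The COL1A1 limits were 1000 and 200 CPM. Counts were summed per pool and class (at least 20 cells), and the smallest collagen-high sum held 1338783 UMIs. The collagen-high sums of D9 held 12789401 and 9414292 UMIs. Genes with a UMI in at least 5% of kept cells were tested with edgeR 4.0.16 in R 4.3.3 (TMM, quasi-likelihood test, all days in 1 fit, 8 residual degrees of freedom, pool as a block between classes of D9, Benjamini-Hochberg adjustment). Calls were made at 0.01 (adjusted p) and beyond 0.25 (log2). COL1A1 was left out.

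Shares of cells with a UMI, marker co-detection, gene pairs and phase scores (scanpy 1.11.5) used cells thinned to 5000 UMIs, which all kept D9 and D0 cells reached. Intervals are exact Clopper-Pearson 95% and cover counting error only. Python used numpy 2.4.6, pandas 2.3.3 and scipy 1.17.1. Doublets were scored with Scrublet and not removed, and free RNA was not subtracted. Empty droplets were not used here. The members, the 26 gene lists and the tests were chosen with earlier results of these data known. The genes named are the up to 3 called genes of each list with the largest differences in each direction, at 20 CPM or more in both pools of the higher side (over all genes, the 5 largest each way at 50 CPM), without mitochondrial and ribosomal protein genes, beside the 4 markers. Genes at or below 3 UMIs on a side are given by UMIs. List members that were not called may be given by their values. Tested on simulated counts, the D9 against D0 comparison recovered 2, 34, 46 and 49 of 50 genes simulated to change 2-, 4-, 8- and 16-fold. It made 1 false call in 12794. All other genes were simulated without change, whereas the data gave 3080 calls, 2775 of them at 2-fold or more. The share of 2-fold changes missed in the data therefore cannot be read from the simulation. Gene positions came from GENCODE on GRCh38 and promoter windows from RefSeq on GRCh38.p14. Alternatives were DESeq2 1.42.0, its size factors, no gene filter, other COL1A1 limits, thinned sums, fewer days, the pool letter as a block and each pool left out. A result that is withheld is not reported here.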

Additional observations from a re-analysis of the deposited data

How the results depend on the processing

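The comparison of collagen-high with collagen-low cells of D9 called 6972 genes in the model with pool as a block, 4096 with no replicate block and 3615 from cells thinned to 5000 UMIs, and 3949 to 4293 with 1 D9 pool left out. Its higher calls made up 52.2% of all calls, 46.0% with the size factors of DESeq2 (which moved the median of all genes from -0.0036 to -0.10), 46.6% by DESeq2, 40.4% with no filter on genes and 59.0% with no block. D9 against D0 called 3080 genes, 4649 with no filter on genes, 1424 from thinned cells, 7832 with only the days compared, 5104 at an adjusted p below 0.05 whatever the fold, 1256 to 1334 without 1 pool, and 2731 against all kept D0 cells (1515 higher, 1216 lower), an alternative chosen after seeing the data. D9 against D7 called 30, 165 by DESeq2, 452 with no filter, 53 at a COL1A1 limit of 500 CPM, 118 with only the days compared, 92 at an adjusted p below 0.05, and 1 to 14 without 1 pool. D11 against D9 called 28, 175 by DESeq2, 605 with no filter, 17 at 500 CPM, 115 at an adjusted p below 0.05, and 1 to 4 without 1 pool. The causes of these moves were not tested. LUM, not called in the comparisons between days, changed sign in 2 of them: it lay between -0.24 and 0.079 against D0 with a pool left out and between -0.65 and 0.048 against D7, the positive values without D0 A and without D7 A, and at 0.27 against all D0 cells. Apart from the markers, the named genes were picked as the largest calls of these same data. That favours their calls being kept, so the next counts do not describe genes at large. The looser limit, an adjusted p below 0.05 whatever the fold, is among the alternatives, and no called gene can lose its call there. Of the values of named genes under alternatives other than a left-out pool, 1027 of 1040 (classes), 863 of 902 (D0), 122 of 130 (D7) and 116 of 130 (D11) kept direction and call. With 1 pool left out these were 127 of 160, 246 of 328, 24 of 52 and 17 of 52.

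The pool letters did not pair the samples in the same way over all days. The correlation of same-letter deviations over pairs of days ran from -0.317 (D7 and D13) to 0.689 (D3 and D13), with a median of 3.4e-05. Some pairs of days were alike, such as D7 and D11 at 0.568, and values of opposite sign offset each other in the median. Pairs with D9 ran from -0.170 (D7) to 0.187 (D3). With the letter as a block 3379 genes were called against D0, 42 against D7 and 35 from D9 to D11.

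The share of collagen-high cells was 21.1% at a limit of 500 CPM and 8.64% at 2000 CPM. Shares of cells with a UMI follow the depth used. Without thinning, at 2000 and at 10000 UMIs, POU5F1 was seen in 53.6%, 4.31% and 19.2% of collagen-high and 93.0%, 49.4% and 74.2% of collagen-low cells. ANPEP was seen in 80.8%, 22.1% and 50.1% against 20.8%, 0.874% and 3.42%, and LUM in 99.8%, 79.1% and 95.6% against 45.4%, 3.25% and 10.7%. EPCAM was seen in 23.1% and 1.52% (no thinning, 2000 UMIs) of collagen-high and 85.4%, 27.7% and 58.5% of collagen-low cells. The classes kept their order for each gene at each depth. Without the top 5% of doublet scores LUM was seen in 91.5%, POU5F1 in 11.5% and EPCAM in 3.96% of collagen-high cells. Unthinned phase scores gave S or G2M to 19.6% of collagen-high and 89.7% of collagen-low cells.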
